A study of Mus musculus with 8 samples.

Results

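The 10 genes described here belong to the insulin-like growth factor (IGF) axis. The genes were measured in mouse stomach organoids with and without YAP5SA, a mutant active form of YAP. They were the ligand Igf2, the receptors Igf1r and Igf2r, the carriers Igfbp2, Igfbp3, Igfbp4, Igfbp5, Igfbp6 and Igfbp7, and the protease Pappa2, which makes 10 of the 56691 rows of the count table. All were taken by gene symbol, and the choice was made with the read counts of the same 2 groups in view. Their own values are therefore given as a description, with no test beyond the fit across all genes. Nothing is read from its calls of the members.

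IGF1 and IGF2 are secreted growth factors that signal through the receptor tyrosine kinase IGF1R to PI3K, AKT and mTOR, while IGF2R, the cation-independent mannose 6-phosphate receptor, takes up IGF2 for degradation in lysosomes. The IGF binding proteins hold the ligands outside the cell, and most of them keep IGF from its receptor until they are cut. PAPPA2 is a secreted metalloprotease that cuts IGFBP3 and IGFBP5, and in the developing gut much of the ligand is made by mesenchyme rather than by the epithelium that responds to it.

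The cultures were organoids grown from hindstomach epithelium of mouse embryos at embryonic day 18.5, kept for 5 days in growth medium and then for 7 days in differentiation medium. Bulk RNA was sequenced from 4 Shh-Cre;YAP5SA libraries (YAP5SA) and from 4 Shh-Cre libraries (Ctrl). Both groups carry Shh-Cre, a Cre recombinase under the control of Shh, which is active in gut epithelium. YAP5SA is a form of the Hippo pathway coactivator YAP in which the serines that hold it inactive are mutated. The labels name no embryo, litter or culture day for the replicates, so a p-value here reflects the spread among these libraries alone, which may be technical.

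Total counts were 17387372 to 21039926 in the YAP5SA libraries and 18225648 to 25841256 in the Ctrl libraries. Values are CPM, reads of a gene relative to the scaled library total (TMM scaling), and 3 counts in a library, the limit used for a count of 0, equal 0.125 to 0.178 CPM. Yap1, whose row cannot separate endogenous from transgenic reads, averaged 140 ± 2.22 CPM in YAP5SA and 118 ± 11 CPM in Ctrl (SD, n = 4 each). Shh, whose locus drives Cre in both groups, averaged 3.44 ± 0.315 CPM in YAP5SA and 32.8 ± 3.37 CPM in Ctrl. Summed over 10 epithelial markers, the level was 12150 to 14889 CPM in YAP5SA and 39485 to 55646 CPM in Ctrl, with 2 markers higher and 7 lower by the edgeR test. Gkn1 (1360 ± 279 CPM in YAP5SA, 16931 ± 3833 CPM in Ctrl) and Tff1 (1193 ± 210 CPM in YAP5SA, 10731 ± 1911 CPM in Ctrl) weighed most in the Ctrl sum. The 2 higher were Epcam (log2 fold change 0.998, edgeR adjusted p = 7.12e-08) and Cldn7 (0.362, edgeR adjusted p = 0.00605). Krt18 did not pass (edgeR adjusted p = 0.250). Of 10 fibroblast markers none passed the filter on low counts, Col1a2, Lum, Twist2 and Postn had 0 counts in all libraries, and their sum was 0.572 to 1.04 CPM in YAP5SA and 0.282 to 0.770 CPM in Ctrl. The sums of 6 smooth muscle markers (1.09 to 1.65 CPM in YAP5SA, at most 1.42 CPM in Ctrl), 8 endothelial markers (1.46 to 2.23 CPM in YAP5SA, 2.54 to 3.73 CPM in Ctrl) and 6 neural and glial markers (0.547 to 1.46 CPM in YAP5SA, 1.12 to 2.43 CPM in Ctrl) were low in both groups. The sum of 8 immune markers was 31.3 to 43.2 CPM in YAP5SA and 8.46 to 17.7 CPM in Ctrl, most of it Cd68. The 2 tested, Cd68 and Lyz2 (71 counts in YAP5SA against 3 in Ctrl), were both higher by the edgeR test. Of the untested, Ptprc had 3 counts in YAP5SA against 15 in Ctrl and Cd3e had 0 against 4. Cd79a, C1qa and C1qb had at most 1 count in either group, and Adgre1 had 0 counts in all libraries. The 4 mesothelial markers summed to 2978 to 3287 CPM in YAP5SA and 3651 to 4310 CPM in Ctrl, nearly all of it Msln, but of the 3 tested 2 were higher and 1 lower by the edgeR test. Msln itself fell by 0.42 on the log2 scale (edgeR adjusted p = 3.04e-04). Upk3b was higher at 101 ± 13.7 CPM in YAP5SA against 23.4 ± 11 CPM in Ctrl (log2 fold change 2.11, edgeR adjusted p = 4.98e-06), as was Wt1 with 88 counts in YAP5SA against 0 in Ctrl (edgeR adjusted p = 4.72e-05). The part of the immune, mesothelial and epithelial marker differences in the values below was not tested, while the fibroblast, smooth muscle, endothelial and neural sums were near 0. All 4 YAP5SA libraries held reads of the Y-linked Ddx3y, Eif2s3y, Kdm5d and Uty, against 0 in all 4 Ctrl libraries, and Xist had 14 counts in YAP5SA against 39949 in Ctrl. Genotype and the sex that these transcripts mark therefore cannot be told apart for any gene here. None of the 10 genes lies on X or Y (0 of 10), but genes on other chromosomes share this limit.

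Igf1r, Igfbp2, Igfbp7 and Pappa2, 4 of the 10 genes, were higher in YAP5SA, and no YAP5SA library overlapped a Ctrl library for any of these 4. Igf2r, Igfbp3, Igfbp4 and Igfbp5 were at similar levels with overlapping libraries, and Igf2 and Igfbp6 were at or near 0 counts in both groups. In the edgeR fit over 13812 genes, with a Benjamini-Hochberg adjusted p under 0.05 as the threshold, 4 of the 8 members tested were past it as higher and 0 as lower, while 4 were not past it and 2 had too few counts to be tested. Over all genes tested 64.5% passed, 33.1% as higher in YAP5SA and 31.3% as lower, and for 58.7% the groups did not overlap. Because the same contrast was known when the members were chosen, nothing is read from their count. The median log2 fold change was 0.84 over the 8 tested members and 0.02 over all genes tested. Since these are bulk samples, a change in the number of cells of a kind and a change in RNA per cell cannot be told apart.

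**Figure D1:**
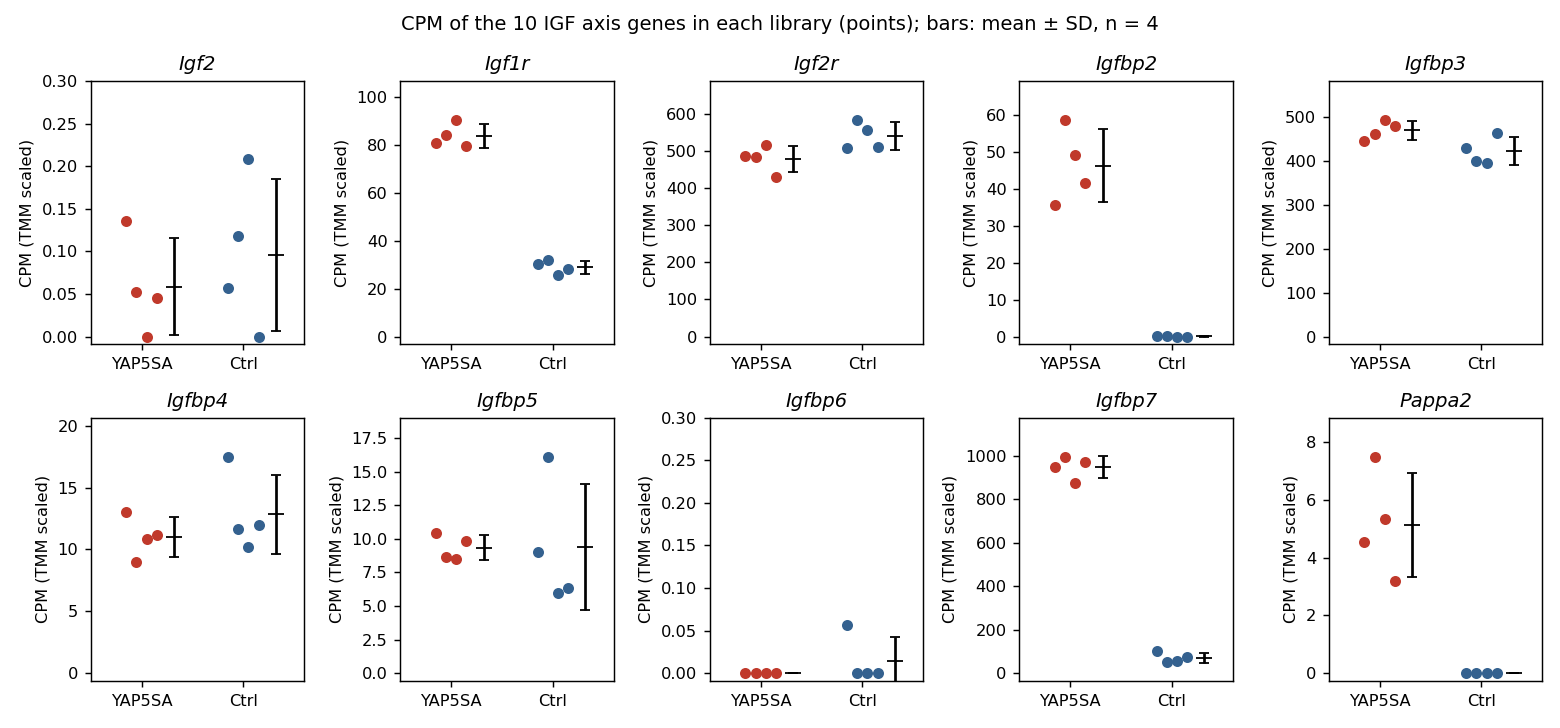
Each panel plots 1 gene in CPM after TMM scaling, with a point for each of the 4 YAP5SA libraries on the left and the 4 Ctrl libraries on the right, and a bar for the mean ± SD. Igf1r, Igfbp2, Igfbp7 and Pappa2 separate the groups, with Pappa2 at 0 in every Ctrl library, while the points of the other genes overlap.

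The bases just upstream of the 4 genes that were higher in YAP5SA are shown because YAP binds DNA only through partners, mainly the TEAD factors, which often sit beside AP-1. RefSeq promoter sequences (GRCm38.p6) were found for all 10 members, in 14 windows of 250 bases before a transcription start. Each was searched on both strands for the TEAD core GGAATG, the AP-1 site TGANTCA, the FOXO site GTAAACA and the GC box GGGCGG that SP1 binds. Capitals mark the matches, read 5′ to 3′ on the strand of the gene. A match on the other strand appears as its reverse complement.
Igfbp2, upstream start, chr1:72824230-72824479, plus strand: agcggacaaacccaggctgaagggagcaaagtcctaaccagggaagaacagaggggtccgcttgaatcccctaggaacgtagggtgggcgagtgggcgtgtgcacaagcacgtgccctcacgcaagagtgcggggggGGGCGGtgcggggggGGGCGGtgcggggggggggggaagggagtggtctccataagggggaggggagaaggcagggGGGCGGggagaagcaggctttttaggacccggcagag
Igfbp2, downstream start, chr1:72825137-72825386, plus strand: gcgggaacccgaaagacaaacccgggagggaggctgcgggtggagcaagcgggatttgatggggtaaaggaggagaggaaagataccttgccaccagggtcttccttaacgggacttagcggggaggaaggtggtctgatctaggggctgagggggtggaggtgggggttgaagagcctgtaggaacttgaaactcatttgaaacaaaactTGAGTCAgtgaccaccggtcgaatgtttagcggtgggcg
Igfbp7, chr5:77408046-77408295, minus strand: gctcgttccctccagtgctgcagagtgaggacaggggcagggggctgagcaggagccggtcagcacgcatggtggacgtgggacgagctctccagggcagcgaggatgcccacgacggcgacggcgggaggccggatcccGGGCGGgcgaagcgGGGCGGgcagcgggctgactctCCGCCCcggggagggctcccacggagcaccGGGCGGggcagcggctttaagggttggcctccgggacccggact
Igf1r, chr7:67952007-67952256, plus strand: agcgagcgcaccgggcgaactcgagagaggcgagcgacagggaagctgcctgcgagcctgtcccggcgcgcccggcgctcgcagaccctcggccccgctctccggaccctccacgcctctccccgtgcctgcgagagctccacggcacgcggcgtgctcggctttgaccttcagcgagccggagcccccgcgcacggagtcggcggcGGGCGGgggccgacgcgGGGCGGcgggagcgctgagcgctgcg
Pappa2, chr1:158958176-158958425, minus strand: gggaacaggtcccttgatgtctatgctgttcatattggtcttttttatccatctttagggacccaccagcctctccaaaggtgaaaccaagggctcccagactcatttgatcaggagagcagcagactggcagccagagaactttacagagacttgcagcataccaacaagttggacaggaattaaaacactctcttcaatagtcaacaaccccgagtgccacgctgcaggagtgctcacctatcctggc

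The Igfbp2 windows held 3 GC boxes before the upstream start and 1 AP-1 site before the downstream start, at bases -39 to -33 counted from that start. Igfbp7 held 4 GC boxes and Igf1r held 2, whereas Pappa2 held none of the 4 motifs. No TEAD core was found in these 5 windows, which says only that these letters are not there. Among the other members, the core was found before Igfbp5 and in 3 of the 4 Igf2 windows, and Igf2r held 3 GC boxes. Of all 32851 RefSeq windows of the same length, 12.6% held the TEAD core, 6.75% the AP-1 site, 3.17% the FOXO site and 32.7% the GC box, and a match is not evidence of binding. The windows also differed in base composition. GC content was 77.6% with 42 CpG for Igf1r, 74.0% with 26 CpG for Igfbp7, 67.2% with 14 CpG and 56.4% with 11 CpG for the upstream and downstream Igfbp2 starts, and 49.2% with 2 CpG for Pappa2, against medians of 52.4% and 6 CpG over all windows.

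Ligand transcripts were scarce in these epithelial cultures. Igf2, an imprinted growth factor expressed from the paternal allele in most fetal tissues, had 3, 1, 0 and 1 counts in YAP5SA replicates 1 to 4, against 1, 2, 5 and 0 in Ctrl replicates 1 to 4. The groups overlap, and the ratio of 5 to 8 counts per total was 0.583 with an exact 95% interval of 0.150 to 2.02, so no difference was detectable at this depth. Igf1, the other IGF ligand, had 1 count over the YAP5SA libraries and 2 over the Ctrl libraries, and Ins1 and Ins2, the insulin genes, had 0 in all libraries. None of the 7 other ligand genes listed for the family passed the count filter. Such intervals and limits pool the counts of each group, so they reflect counting error alone and not the spread between libraries. No molecular identifiers were used.

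Igf1r, the signalling receptor, was at 80.9, 84.2, 90.5 and 79.6 CPM in YAP5SA replicates 1 to 4, against 30.1, 32, 25.6 and 28.2 CPM in Ctrl replicates 1 to 4. Every YAP5SA library lies above every Ctrl library by a wide margin, with little spread within either group. The means were 83.8 ± 4.88 CPM in YAP5SA and 29.0 ± 2.71 CPM in Ctrl (SD over 4 libraries each), which is 2.89-fold or 1.53 on the log2 scale (SE 0.09). Igf2r, the clearance and lysosomal sorting receptor, was at 487, 483, 515 and 429 CPM in YAP5SA, against 507, 583, 557 and 511 CPM in Ctrl. The groups overlap through YAP5SA replicate 3, which lies above the lowest pair of Ctrl libraries. Its means were 478 ± 35.7 CPM in YAP5SA and 540 ± 36.9 CPM in Ctrl, a log2 fold change of -0.17 (SE 0.08). Airn, the long noncoding RNA that is transcribed antisense to Igf2r, overlaps it, and the strand setting of the counting is not given, so reads of the overlap cannot be assigned with certainty. Airn was far less counted, at 12.5 ± 3.41 CPM in YAP5SA and 5.82 ± 1.39 CPM in Ctrl.

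Per kilobase of exon, a scale that allows for exon length, Igf2r stood above Igf1r in every library. The lengths merge all annotated exons of a gene, so ratios and ranks between genes depend on them. The Igf2r to Igf1r ratio was 9.72 to 10.9 in the 4 YAP5SA libraries and 30.4 to 39.2 in the 4 Ctrl libraries, without overlap. Of the pair, the Igf1r libraries separated the genotypes and the Igf2r libraries overlapped. Ranked among 13347 tested genes with an exon length, Igf1r was at percentile 52.9 in YAP5SA and 30.9 in Ctrl. Igf2r was at percentile 92.8 in YAP5SA and 93.4 in Ctrl.

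Igfbp7 was the most abundant carrier in YAP5SA. It encodes a secreted protein that binds IGFs weakly compared with the classical binding proteins and is deposited in the extracellular matrix. Its level was 950, 996, 875 and 973 CPM in YAP5SA replicates 1 to 4, against 100, 51.4, 56.5 and 73.2 CPM in Ctrl replicates 1 to 4. All YAP5SA libraries lie far above all Ctrl libraries, and Ctrl replicate 1 is the highest of its group. The means were 948 ± 52.5 CPM in YAP5SA and 70.3 ± 22.0 CPM in Ctrl (SD over 4 libraries each), which is 13.5-fold or 3.75 on the log2 scale (SE 0.17). The coefficient of variation was 5.54% in YAP5SA and 31.3% in Ctrl.

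Igfbp2, a carrier that binds IGF2 with high affinity and is widely expressed in fetal epithelia, was plainly expressed in YAP5SA and barely detectable in Ctrl. It had 783, 1126, 921 and 913 counts in YAP5SA replicates 1 to 4, against 3, 1, 0 and 0 counts in Ctrl replicates 1 to 4. Detection in Ctrl rests on 4 counts, 3 of them in replicate 1. The levels were 35.6, 58.6, 49.1 and 41.6 CPM in YAP5SA, with a mean of 46.2 ± 9.93 CPM, and averaged 0.0571 ± 0.0798 CPM in Ctrl. The ratio of counts per total was 874 with an exact 95% interval of 341 to 3208. The fitted log2 fold change was 9.62 (SE 0.35), and without Ctrl replicate 1 it was 10.93, so its size depends on those few counts while every YAP5SA library stays above every Ctrl library.

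Igfbp3, which carries most circulating IGF in the ternary complex with the acid-labile subunit, was abundant in both groups. Its level was 445, 461, 494 and 480 CPM in YAP5SA replicates 1 to 4, against 431, 401, 395 and 464 CPM in Ctrl replicates 1 to 4. The groups overlap through Ctrl replicate 4. The means were 470 ± 21.3 CPM in YAP5SA and 422 ± 31.6 CPM in Ctrl, a log2 fold change of 0.15 (SE 0.07).

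Igfbp4, which mostly inhibits IGF action and is the main substrate of PAPPA, was at 13.0, 9.0, 10.9 and 11.1 CPM in YAP5SA, against 17.5, 11.7, 10.2 and 12 CPM in Ctrl. The groups overlap, and the log2 fold change was -0.22 (SE 0.17). Igfbp5, the most conserved binding protein of the family and a substrate of PAPPA2, was at 10.4, 8.64, 8.53 and 9.81 CPM in YAP5SA, against 9.03, 16.1, 5.96 and 6.37 CPM in Ctrl. Its means, 9.35 ± 0.930 CPM in YAP5SA and 9.37 ± 4.70 CPM in Ctrl, nearly coincide, and Ctrl replicate 2 is the highest library. The log2 fold change of Igfbp5 was 0.01 (SE 0.26), with a coefficient of variation of 9.94% in YAP5SA and 50.1% in Ctrl. Igfbp6, which prefers IGF2 over IGF1, had 0 counts in all 4 YAP5SA libraries and 1 count in Ctrl, in replicate 1, so it was not detectable at this depth in YAP5SA. The carrier genes outside the 10 members were as scarce, with 0 counts of Igfbp1 in both groups, 1 count of Igfals in YAP5SA against 3 in Ctrl, and 6 counts of Igfbpl1 in YAP5SA against 1 in Ctrl.

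**Figure D2:**
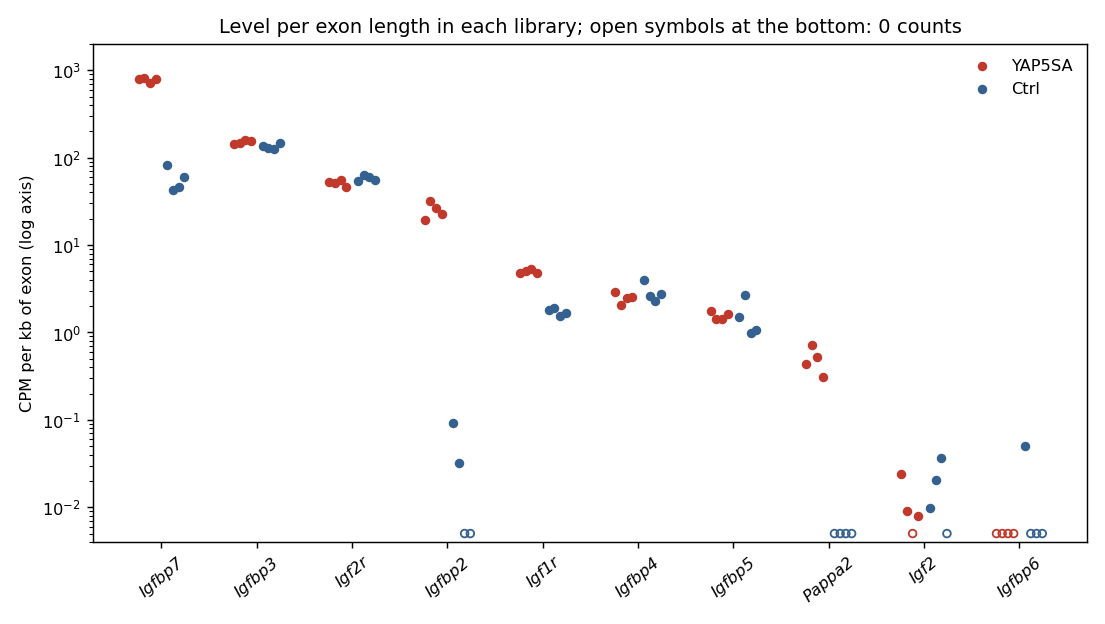
CPM per kilobase of exon on a log axis for each gene, with YAP5SA points left of Ctrl points and open symbols at the bottom for libraries with 0 counts. Igfbp7 leads in YAP5SA at 723 to 824, Igfbp3 leads in Ctrl at 126 to 148, and Igfbp2 and Pappa2 drop to the bottom of the axis in Ctrl.

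The order of the members per kilobase of exon differed between the genotypes. In YAP5SA the means ran, from high to low, Igfbp7 (784 CPM per kb), Igfbp3 (150), Igf2r (51.4), Igfbp2 (25.0), Igf1r (4.99), Igfbp4 (2.49), Igfbp5 (1.56), Pappa2 (0.499), Igf2 (0.0102) and Igfbp6 (0). No neighbours in that order overlapped between libraries down to Pappa2. In Ctrl the means ran, from high to low, Igfbp3 (135 CPM per kb), Igfbp7 (58.2), Igf2r (58.0), Igfbp4 (2.91), Igf1r (1.73), Igfbp5 (1.56), Igfbp2 (0.0309), Igf2 (0.0167), Igfbp6 (0.0127) and Pappa2 (0). There Igfbp7 and Igf2r overlapped, as did Igfbp5 with both Igf1r and Igfbp4, and the last 4 rested on at most 5 counts in any library. Among tested genes with a length, Igfbp7 was at percentile 99.6 in YAP5SA and 93.4 in Ctrl, and Igfbp3 at 97.7 in YAP5SA and 97.3 in Ctrl.

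Summed over the 6 carriers, the level per kilobase was 964 ± 41.2 CPM per kb in YAP5SA and 198 ± 25.6 CPM per kb in Ctrl (SD, n = 4 each), with libraries from 912 to 1006 in YAP5SA and from 176 to 226 in Ctrl. Igfbp7 made up 79.3% to 82.5% of that sum in YAP5SA and 24.2% to 36.7% in Ctrl. Igfbp3 made up 14.7% to 17.3% in YAP5SA and 60.8% to 72.8% in Ctrl, although its own level differed little. Igfbp2 contributed 2.02% to 3.15% in YAP5SA and at most 0.0405% in Ctrl. Without Igfbp7 the sum of the 5 remaining carriers was 179 ± 9.39 CPM per kb in YAP5SA and 139 ± 10.1 CPM per kb in Ctrl. The 4 YAP5SA libraries lie above the 4 Ctrl libraries there too, at 166 to 188 in YAP5SA and 129 to 152 in Ctrl. The Igfbp7 to Igfbp3 ratio per kilobase was 4.58 to 5.59 in YAP5SA and 0.332 to 0.603 in Ctrl, so the more abundant of this pair differed between the genotypes in every library. These ratios and shares are built from the members' own values and carry no test.

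**Figure D3:**
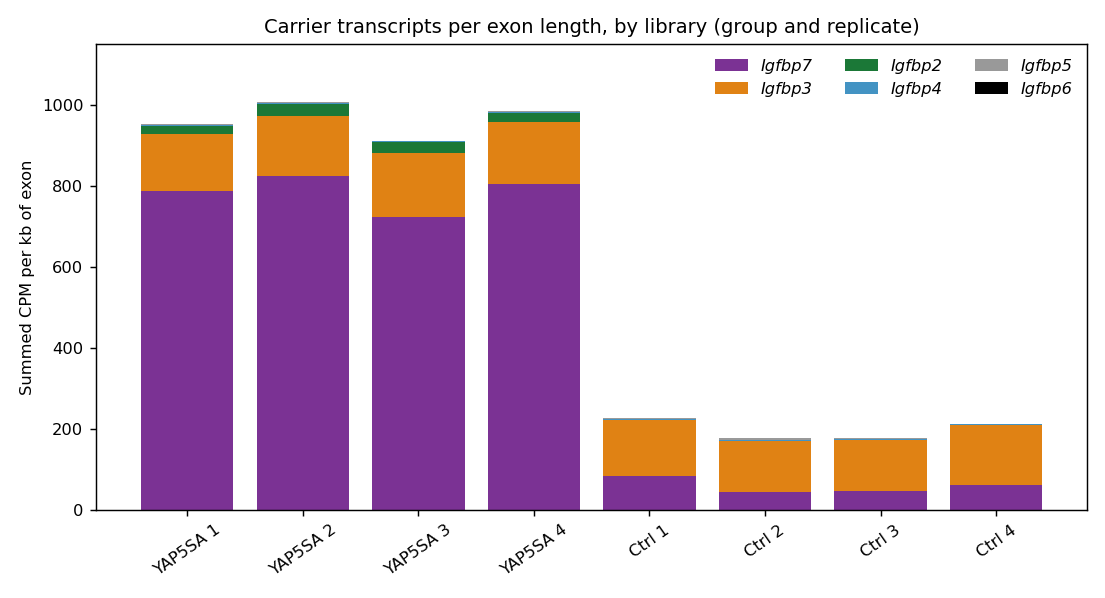
Stacked bars of CPM per kilobase of exon for the 6 carrier genes in each library, the 4 YAP5SA libraries on the left and the 4 Ctrl libraries on the right. The bars reach 912 to 1006 in YAP5SA, mostly Igfbp7, and 176 to 226 in Ctrl, mostly Igfbp3.

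Pappa2, the carrier protease, had 100, 144, 100 and 70 counts in YAP5SA replicates 1 to 4, against 0 counts in each of the 4 Ctrl libraries. It was thus counted in every YAP5SA library and in no Ctrl library. The level was 4.54, 7.49, 5.33 and 3.19 CPM in YAP5SA, with a mean of 5.14 ± 1.80 CPM (SD, n = 4). Against a floor of 3 counts over the pooled Ctrl libraries, which is 0.0392 CPM, the pooled YAP5SA level was 129-fold higher. This ratio leaves out the spread between libraries and is not a lower bound. A floor of 3 counts in each Ctrl library is higher, at 0.125 to 0.178 CPM. Its paralogue Pappa, the protease that cuts IGFBP4, had 0 counts in YAP5SA and 2 in Ctrl. Stc1 and Stc2 encode stanniocalcins, which inhibit both PAPPA and PAPPA2. Stc2 averaged 49.6 ± 3.92 CPM in YAP5SA and 48.4 ± 12 CPM in Ctrl, and its difference of 0.04 on the log2 scale (SE 0.14) did not pass (edgeR adjusted p = 0.831). Stc1 was near the detection limit, with 37 counts in YAP5SA and 39 in Ctrl, and its log2 fold change was -0.20 (SE 0.52, edgeR adjusted p = 0.754).

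Genes with profiles most like each member's across the 8 libraries were found by the distance between log2 CPM values after subtracting each gene's mean. The 9842 candidates were tested genes above a minimum mean log2 CPM over the 8 libraries, without predicted genes and pseudogenes. A shorter distance means a closer profile. Nearest to Igf1r were Pcsk6 (distance 0.218), Timp2 (0.271) and P3h4 (0.282). Nearest to Igfbp7 were Csf1 (0.521), Ass1 (0.545) and Ptgs1 (0.574). Nearest to Igfbp2 were Cav1 (1.66), Lhfp (1.83) and Kcnab1 (1.97), and nearest to Pappa2 were Plscr2 (0.875), Hspb8 (1.03) and Mmp14 (1.14). These distances were longer, but the minimum mean left out candidates that, like Igfbp2 and Pappa2, were near 0 in Ctrl and low on average. Whether closer profiles exist among the genes left out was not tested. The fitted log2 fold changes also differed, at 7.37 to 7.68 for the 3 nearest to Igfbp2, itself at 9.62. For Pappa2, at 9.67, the 3 nearest were at 5.43 to 5.51. The profiles used a prior count of 2, which raises values near 0 counts. For the members that differed little, Rab5b was nearest to Igf2r (0.122), Acot7 to Igfbp3 (0.0996), Tysnd1 to Igfbp4 (0.301) and Pdgfc to Igfbp5 (0.728). The points share libraries, depth and the genotype difference, so closeness is a description.

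The other genes of the pathway were taken from a list of 112 genes grouped by role, written with earlier results of these data known. Of these, 87 passed the count filter, of which 36 were higher in YAP5SA, 26 lower and 25 not past the threshold (edgeR adjusted p under 0.05), or 71.3% called against 64.5% of all genes tested. Their median log2 fold change was 0.13, against 0.02 over all genes. With scaling by library size alone, which moves the median of all genes to 0.19, the split was 46 higher and 18 lower, and over all genes 5742 higher and 3201 lower. In the main fit 33.1% of all genes tested were higher and 31.3% lower. Beside these shares, and given how the list was written, the counts of its role groups below are a description.

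Among 12 genes that release IGF from its carriers or inhibit that release, 10 were tested, of which 6 rose, 1 fell and 3 did not pass, with a median log2 fold change of 0.36. Htra1, a secreted serine protease that cuts IGF binding proteins, rose by 4.14 on the log2 scale (SE 0.11, edgeR adjusted p = 3.15e-12), averaging 254 ± 23.3 CPM in YAP5SA and 14.5 ± 2.27 CPM in Ctrl. Plau, which encodes urokinase, rose by 3.89 (SE 0.16, edgeR adjusted p = 1.28e-10), averaging 64.3 ± 7.04 CPM in YAP5SA and 4.35 ± 1.17 CPM in Ctrl. Adam28, a metalloprotease known to cut IGFBP3, fell by 3.19 (SE 0.16, edgeR adjusted p = 6.15e-10), averaging 18.7 ± 5.46 CPM in YAP5SA and 170 ± 12.4 CPM in Ctrl. The proteases thus moved in both directions. Every YAP5SA library lay outside the Ctrl range for these 3 genes.

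Of 4 further receptors listed, 2 were tested. Insr, the insulin receptor, which pairs with IGF1R in hybrid receptors, fell by 0.38 on the log2 scale (SE 0.10, edgeR adjusted p = 0.00405). Its level averaged 48.7 ± 5.96 CPM in YAP5SA and 63.4 ± 6.03 CPM in Ctrl, but with scaling by library size alone its log2 fold change was -0.20 (adjusted p = 0.0962). Lrp2, which encodes the endocytic receptor megalin, rose by 6.32 (SE 0.37, edgeR adjusted p = 4.06e-09), averaging 10.9 ± 1.86 CPM in YAP5SA and 0.133 ± 0.145 CPM in Ctrl. Without Ctrl replicate 1, which holds most of the few Ctrl reads, the Lrp2 value was 7.18. Insrr had 0 counts in all libraries. Cd93, a cell surface receptor that binds IGFBP7, was not tested at 74 counts in YAP5SA against 0 in Ctrl.

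Of 21 adaptors and regulators at the receptor, 17 were tested, with 3 higher, 6 lower and 8 not past the threshold, and a median log2 fold change of -0.15. Irs1, a docking protein that couples the receptor to PI3K, fell by 0.80 (SE 0.14, edgeR adjusted p = 1.63e-04). Irs2, its relative, fell by 0.48 (SE 0.17, edgeR adjusted p = 0.0228), but did not pass with library size scaling (adjusted p = 0.126), without Ctrl replicate 2 (0.0752) or without YAP5SA replicate 4 (0.0517). Their paralogues Irs3 and Irs4 had 0 counts. Grb10, an imprinted adaptor that restrains signalling from IGF1R and INSR, rose by 2.90 (SE 0.33, edgeR adjusted p = 3.28e-06), averaging 2.79 ± 0.0890 CPM in YAP5SA and 0.376 ± 0.189 CPM in Ctrl. Its relative Grb14 fell by 0.61 (SE 0.17, edgeR adjusted p = 0.00552). Gab1, a scaffold that recruits PI3K, rose by 1.25 (SE 0.13, edgeR adjusted p = 1.22e-06), and Ptpn1, a phosphatase that acts on the insulin receptor, fell by 0.64 (SE 0.08, edgeR adjusted p = 7.54e-06).

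Downstream, 27 of 28 genes of the PI3K, AKT and mTOR arm were tested, with 11 higher, 11 lower and 5 not past the threshold, and a median log2 fold change of 0.01. Deptor, an inhibitor bound to mTOR, fell by 2.57 (SE 0.12, edgeR adjusted p = 3.10e-10), averaging 13.7 ± 1.40 CPM in YAP5SA and 81.5 ± 12.1 CPM in Ctrl. Pik3cb, a catalytic subunit of PI3K, rose by 1.31 (SE 0.08, edgeR adjusted p = 8.81e-09). Of 12 FOXO genes and their targets, 9 were tested, with 3 higher, 1 lower and 5 not past the threshold. Klf15, a transcription factor gene induced in fasting, rose by 4.08 (SE 0.33) and Sesn1, a stress-responsive inhibitor of mTOR complex 1, rose by 0.86 (SE 0.23), while its relative Sesn3 fell by 1.01 (SE 0.09), with edgeR adjusted p-values of 9.55e-08, 0.00413 and 3.51e-07 in that order.

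**Figure D4:**
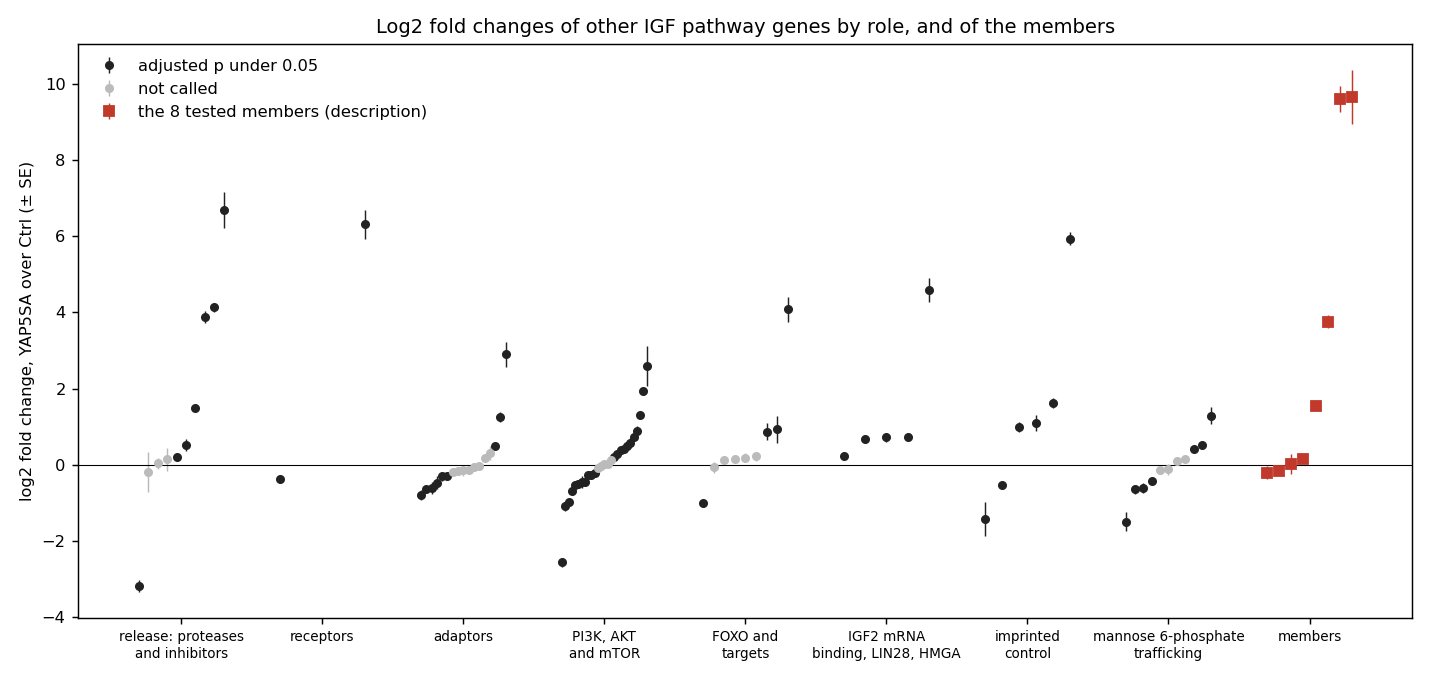
Log2 fold changes of YAP5SA over Ctrl with their SE for the tested pathway genes in 8 role groups, black where the edgeR adjusted p was under 0.05 and grey elsewhere, and for the 8 tested members as red squares. The groups were listed with earlier results known. All 5 points of the IGF2 mRNA binding group lie above 0, and the PI3K group has 11 called on each side. The square of Pappa2 at 9.67 is a fitted value against 0 counts, not a bound.

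The IGF2 mRNA binding group is named for the IGF2BP proteins, which bind the ligand's transcript, and also holds LIN28 and HMGA genes. Of 7 genes, 5 were tested and all 5 rose, with a median log2 fold change of 0.72. Over all genes tested 33.1% were higher, and the group was listed with earlier results known, so nothing is read from this count. Igf2bp1, an RNA-binding protein of fetal tissues that is known for binding Igf2 mRNA, rose by 4.59 (SE 0.31, edgeR adjusted p = 1.70e-08), averaging 11.9 ± 3.54 CPM in YAP5SA and 0.469 ± 0.239 CPM in Ctrl. Igf2bp3 rose by 0.72 (SE 0.12, edgeR adjusted p = 1.02e-04) and Hmga1, a chromatin protein, by 0.73 (SE 0.10, edgeR adjusted p = 2.66e-05). Igf2bp2 rose by 0.23 (SE 0.07, edgeR adjusted p = 0.0103), and without Ctrl replicate 3 it was at 0.18 (adjusted p = 0.0654). These changes stood beside Igf2 counts of 5 in YAP5SA and 8 in Ctrl.

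Of 7 genes of imprinted loci and their control, 6 were tested, with 4 higher and 2 lower and a median log2 fold change of 1.04. H19, the maternally expressed RNA next to Igf2, fell by 1.43 (SE 0.44, edgeR adjusted p = 0.0111), but its groups overlap, with 2.59, 5.25, 5.49 and 1.73 CPM in YAP5SA against 3.97, 7.26 and 8.99 CPM in Ctrl replicates 2 to 4 and a higher level in Ctrl replicate 1. Cdkn1c, an imprinted cell cycle inhibitor on the same chromosome, rose by 5.94 (SE 0.17, edgeR adjusted p = 4.11e-12), averaging 239 ± 28.3 CPM in YAP5SA and 3.88 ± 1.15 CPM in Ctrl. Plagl1, an imprinted zinc finger factor, rose by 1.62 (SE 0.13, edgeR adjusted p = 8.87e-08). Ctcf, which binds the imprinting control region between H19 and Igf2, fell by 0.53 (SE 0.07, edgeR adjusted p = 9.31e-06). Airn rose by 1.09 (SE 0.21, edgeR adjusted p = 4.91e-04) while Igf2r did not pass the threshold, with the limit on overlapping reads given above.

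All 11 genes that make the mannose 6-phosphate tag or move its receptors were tested, with 3 higher, 4 lower and 4 not past the threshold, and a median log2 fold change of -0.13. Vps35, a retromer subunit that returns IGF2R from endosomes, rose by 0.52 (SE 0.07, edgeR adjusted p = 2.62e-05), averaging 415 ± 26.6 CPM in YAP5SA and 290 ± 16.1 CPM in Ctrl. Gnptab, which starts the mannose 6-phosphate tag, fell by 0.66 (SE 0.11, edgeR adjusted p = 1.21e-04). Nagpa, which completes it, fell by 1.5 (SE 0.24, edgeR adjusted p = 8.78e-05).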

How the data were processed

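The deposited table holds unnormalized read counts for 56691 rows. Per the labels' protocols, total RNA (RNeasy kit) was made into VAHTS V8 libraries and read from both ends on an Illumina NovaSeq. HISAT2 2.0.1, HTSeq 0.6.1, cutadapt and the build mm9 are named in the submitters' processing notes. The strand setting is not given in the sources used here, nor is the annotation.

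Groups and replicate numbers came from the sample titles. Replicates of a group differed beyond sampling noise, with a chi-square per degree of freedom of 4.94 to 38.3. Counts were fitted in R 4.3.3 with edgeR 4.0.16. Genes passing filterByExpr (minimum count 10, minimum total 15), 13812 of them, were scaled by TMM, and the two-sided quasi-likelihood F test had no covariate, with Benjamini-Hochberg adjustment over all genes tested and 0.05 as the threshold. SEs were obtained from the fold change (log2) and the root of F.

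CPM per kilobase used merged exon lengths of GENCODE M21 (GRCm38), matched by symbol, so its build is not that of the counts. Profiles were compared with a prior count of 2 in log2 CPM. Promoters were RefSeq sequences of GRCm38.p6, a build other than the one named in the notes.

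The members and gene lists were chosen with earlier results of these data known. The genes named were the 10 members, 18 further genes of the axis, Yap1 and Shh, up to 3 tested genes with the smallest p of each list, and the 3 nearest profiles of each member. A gene that this rule takes is not reported here. Airn, Cd93, Irs3, Irs4, Ins1 and Ins2 were named after their values were seen. Alternatives were a replicate block, leaving out each library, other scalings (library size, upper quartile, RLE), DESeq2 1.42.0, limma-voom (limma 3.58.1), no filter, and a filter at 1 CPM in 4 libraries.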

Additional observations from a re-analysis of the deposited data

Results flagged for a closer look

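Over 75 groups of 4 libraries, the gap of the highest or lowest library to its nearest neighbour was compared with the whole range of the group, and 1 exceeded Dixon's critical value for 4 values, where chance exceeds it in about 1 of 20 groups. It was Pik3cb, the PI3K catalytic subunit gene, in Ctrl replicate 1. That library was at 24.9 CPM, while the other 3 Ctrl libraries were at 29.1 to 29.7 CPM, so the gap was 0.886 of the range. The YAP5SA libraries were at 65.3 to 72.7 CPM, all above the 4 Ctrl libraries.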

How the results depend on the processing

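Igf1r, Igfbp2, Igfbp7 and Pappa2 were past the threshold as higher in YAP5SA under every alternative run, and no result changed sign past it. The members were chosen with this contrast in view, so their calls show only how the values depend on the settings. Igf2r passed as lower with DESeq2 (-0.19), with limma-voom (-0.17) and without Ctrl replicate 1 (-0.23), Ctrl replicate 4 (-0.22) or YAP5SA replicate 3 (-0.21), and was at 0.0043 with library size scaling. Igfbp3 passed as higher with upper quartile (0.21) and library size scaling (0.33). The cause was not tested. The fitted Pappa2 value was 9.03 with DESeq2 and 7.52 with limma-voom, against 9.67 with edgeR. Over all genes 8907 were called, and 8299 to 9716 under the alternatives, while leaving out a library gave 8299 to 8972. Of the 87 other pathway genes tested 62 were called, and 59 to 65 under the alternatives. With the replicate number as a block 9174 genes and 65 pathway genes were called, and the calls of the members did not change. Libraries with the same number correlated in their deviations from the group means by 0.0653, 0.0463, 0.0901 and 0.281. For libraries with other numbers the range was -0.192 to 0.131. The labels name no pairs, so the numbers were not taken as pairs in the main fit. Depth limits Igf2, Igfbp6 and the Ctrl values of Igfbp2 and Pappa2, which rest on 0 to 5 counts a library.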

Other observations

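Within the PI3K and AKT arm, Akt1 and Akt2 moved in opposite directions, and so did regulatory and some catalytic subunit genes of PI3K. These examples were picked out after the values were seen, and not all paralogues of the arm moved apart. Akt1, a kinase gene of this arm, fell by 0.51 on the log2 scale (SE 0.08, edgeR adjusted p = 4.19e-05), averaging 129 ± 9.71 CPM in YAP5SA and 185 ± 11.1 CPM in Ctrl, while Akt2 rose by 0.42 (SE 0.07, edgeR adjusted p = 2.20e-04), averaging 60.3 ± 0.278 CPM in YAP5SA and 45.1 ± 3.10 CPM in Ctrl. The regulatory subunit genes Pik3r1, Pik3r2 and Pik3r3 fell, with log2 fold changes of -0.55 (SE 0.10), -0.98 (SE 0.08) and -1.09 (SE 0.13) and edgeR adjusted p-values of 1.77e-04, 1.80e-07 and 4.99e-06 in that order, while of the catalytic genes Pik3cb rose and Pik3ca was at 0.13 (adjusted p = 0.159). The catalytic gene Pik3cd, which had few counts (61 in YAP5SA against 9 in Ctrl), rose by 2.59 (SE 0.52, edgeR adjusted p = 6.26e-04). Every YAP5SA library lay below every Ctrl library for the 3 regulatory genes.

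Also picked out after the values were seen were genes upstream of mTOR. Tsc1 and Tsc2, whose products hold back the GTPase encoded by Rheb, fell by 0.45 (SE 0.10, edgeR adjusted p = 0.00168) and 0.69 (SE 0.11, edgeR adjusted p = 6.94e-05). Rheb itself rose by 0.38 (SE 0.09, edgeR adjusted p = 0.00289), averaging 174 ± 23.0 CPM in YAP5SA and 134 ± 9.42 CPM in Ctrl. Mmp7, an epithelial metalloprotease known to cut IGF binding proteins, rose by 6.69 (SE 0.47, edgeR adjusted p = 2.64e-08), with 495 counts in YAP5SA against 4 in Ctrl.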
